A study of Mus musculus with 2 samples.

Results

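The genes described here encode the cytoplasmic and nuclear machinery of mRNA decay: poly(A) tail shortening, removal of the cap, digestion of the RNA body and nonsense-mediated decay (NMD). They were taken as a fixed list of 44 gene symbols, matched to the symbols of the deposited table. The matching used no values, but the list was chosen with earlier results of these data known. All 44 were among the 18987 genes listed, and all 44 were among the 12086 that passed a filter on low values, a mean over both libraries of 1 CPM (counts relative to the scaled library size) or more. RNA came from RAW264.7, a mouse line of macrophage character whose cells become osteoclasts, the bone-resorbing cells, under the cytokine RANKL. The control library carried a control shRNA and the other an shRNA against Cpeb4, a cytoplasmic polyadenylation element-binding protein. Cells of both libraries were seeded at 7500 per cm2, received RANKL at 100 ng/ml after 24 h, and were collected on day 3 by the series title. There was 1 library per group and the labels name no clones or separate cultures, so every difference compares these libraries, with no test and no replicate check.

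Decay of most mRNAs starts with shortening of the poly(A) tail by the PAN2-PAN3 and CCR4-NOT deadenylases. The body is then digested from the 5′ end by XRN1 after the cap is removed by DCP2, or from the 3′ end by the exosome, a ring of subunits that holds a nuclease. NMD removes mRNAs with premature stop codons, and CPEB proteins bind elements in 3′ UTRs and can lead either to tail lengthening or to recruitment of CCR4-NOT.

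The control library held 79399680 counts and the Cpeb4 shRNA library 119350322, and counts were scaled by TMM. Cpeb4 itself had 25270 counts (345 CPM) in the control and 13491 counts (104 CPM) in the Cpeb4 shRNA library, a log2 ratio of -1.73. All 9 osteoclast markers were lower in the Cpeb4 shRNA library by 2-fold or more, with a median log2 ratio of -2.25 and a summed level of 48177 CPM in the control and 9721 CPM in the Cpeb4 shRNA library. All 8 markers of cycling cells were at least 2-fold higher, with a median of 4.01 and summed levels of 166 and 1943 CPM. Of 8 macrophage markers 6 passed the filter, with a median of -0.29 and summed levels over the 8 of 4153 and 2582 CPM. The other 2 were Adgre1, with 12 and 101 counts, and Fcgr1, with 88 and 19. Of 8 fibroblast and osteoblast markers 5 were listed and 0 passed the filter, of 6 lymphoid markers 2 were listed and 0 passed, and of 7 granulocyte and mast cell markers 0 were listed. Of 5 dendritic cell markers 3 were listed, with summed levels of 40.1 and 5.05 CPM. In these bulk samples, fewer cells of a type and less RNA per cell cannot be told apart. The part of the shift in osteoclast and cycling markers in the differences below was not tested.

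Transcripts of the decay machinery were higher in the Cpeb4 shRNA library almost without exception under TMM scaling, mostly by less than 2-fold, but 19 of the 44 were below 0 when counts were scaled to 18 reference genes. Of the 44 genes 43 had a log2 ratio (Cpeb4 shRNA over control) above 0, which is 97.7% of them, against 52.5% of all genes past the filter. The median was 0.52, or 1.43-fold, against a median of 0.05 over all genes past the filter. Only 7 genes were at least 2-fold higher, or 15.9%, close to the background of 14.6%, while 0 were at least 2-fold lower against a background of 11.8%. At 1.5-fold, 15 genes or 34.1% were higher against 26.4% of all genes, and 0 were lower against 22.1%. The list thus differed from the rest of the table less by large ratios than by a narrow spread on the higher side.

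The interquartile range of the members' log2 ratios ran from 0.28 to 0.68, and that of all genes from -0.51 to 0.62. Ranked among all 12086 genes, 42 of the 44 lay above the median of all genes, a count that does not depend on the scaling factor. Only 3 lay above the 90th percentile, 13 above the 75th and 0 below the 25th. The direction itself does depend on scaling. A set of 20 commonly used reference genes ranged from -1.96 to 1.93 in log2 ratio, with a median of 0.11, or 0.41 for the 18 left without Tfrc and Gusb. With counts scaled to the median of those 18, 25 of the 44 were above 0, or 56.8%, against a background of 33.2%. The 44 genes made up 0.374% of the control counts (exact binomial interval 0.372% to 0.375%) and 0.703% (0.702% to 0.705%) of those with Cpeb4 shRNA. Pabpc1 accounted for 30.2% of their counts in the control and 38.0% with Cpeb4 shRNA. Without it the share was 0.261% and 0.436%.

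**Figure D1:**
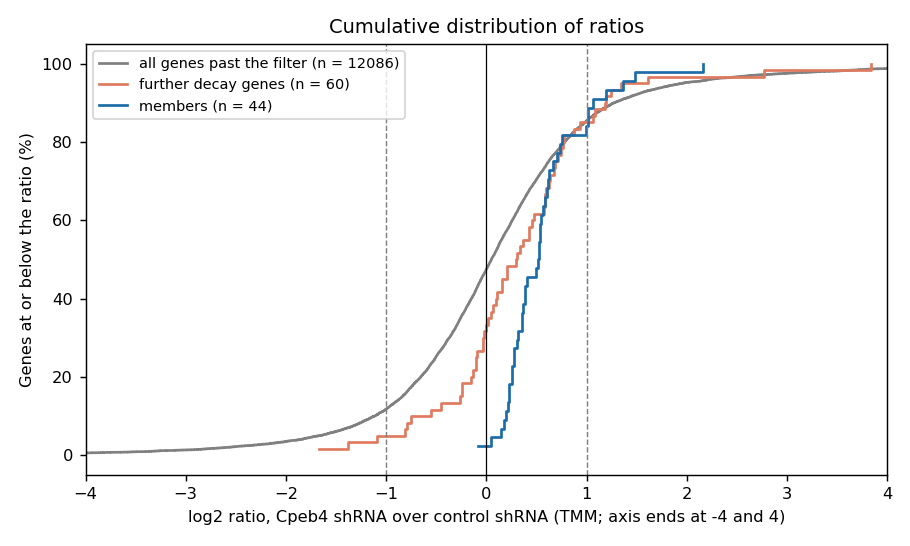
Cumulative share of genes (percent, vertical axis) at or below each log2 ratio (horizontal axis, Cpeb4 shRNA over control) for the 44 members, 60 further decay genes and all 12086 genes past the filter; dashed lines mark 2-fold. The members' curve starts at -0.08, rises steeply around its median of 0.52 and meets the curve of all genes near the 2-fold line.

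**Figure D2:**
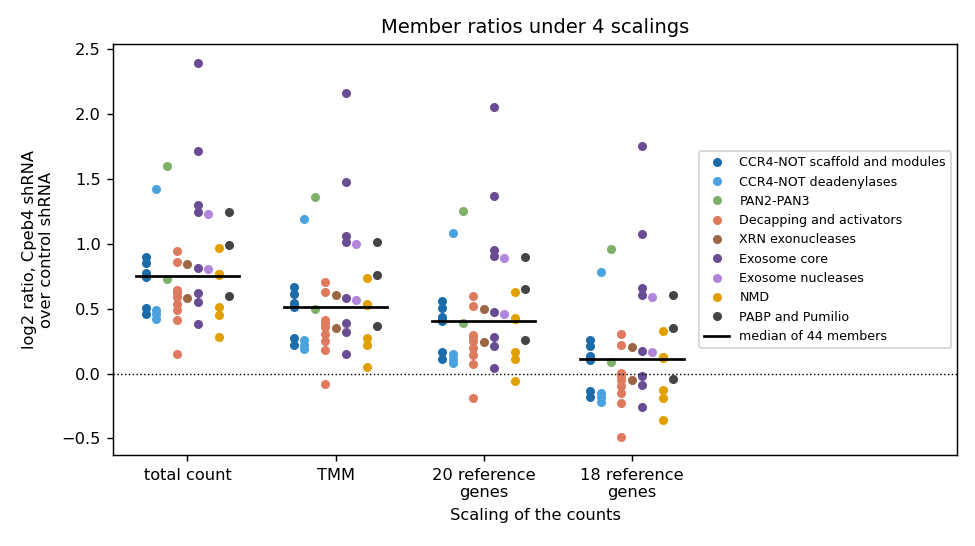
Log2 ratios of the 44 members (points, coloured by role; vertical axis) under total-count, TMM, 20-reference-gene and 18-reference-gene scaling, with the members' median as a bar. The median moves from 0.75 to 0.11, and the order of the genes stays the same because a scaling factor shifts all of them alike.

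Counting error was small beside these differences. Counts per gene and library ranged from 564 to 319022. The 95% counting interval of a log2 ratio (exact Clopper-Pearson) had a median width of 0.12 and was widest, at 0.28, for Dcp1b. The interval lay above 0 for 42 of the 44 genes, a count that was not made over all genes. Its lower limit was past 2-fold for 5 of the 44 and for 1449 of all 12086 genes past the filter. These intervals cover counting error only, take reads as independent although PCR copies are not, and say nothing of the spread between cultures.

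**Figure D3:**
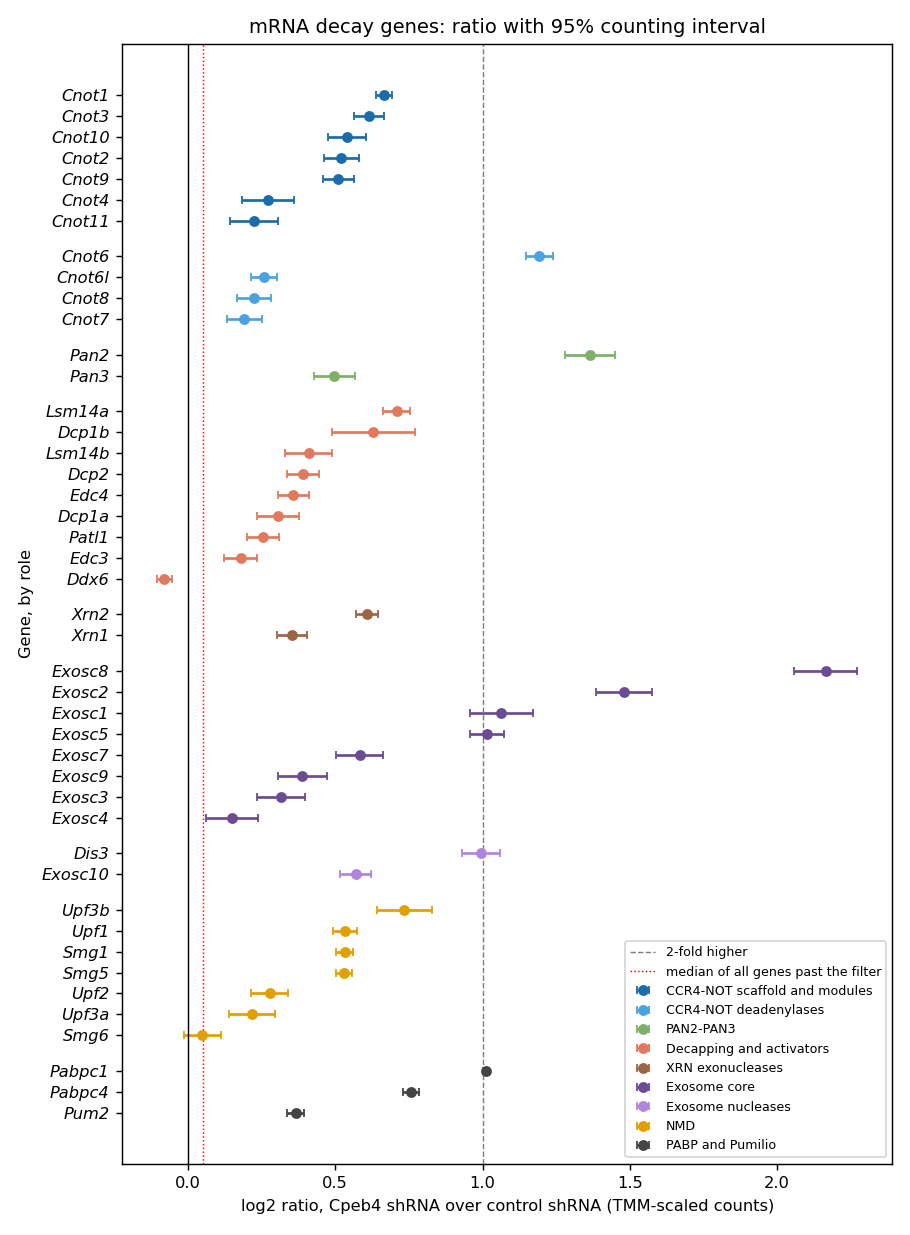
Log2 ratio of each of the 44 genes (points, horizontal axis) with its 95% counting interval (bars), grouped and coloured by role; the dashed line marks 2-fold higher and the dotted line the median of all genes past the filter (0.05). Exosome core genes span the widest range, from 0.15 to 2.16, and Ddx6 at -0.08 is the gene below 0.

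The 7 scaffold and module genes of the CCR4-NOT complex were higher under TMM scaling by less than 2-fold each, with a median of 0.52. Cnot1, the large scaffold on which the complex assembles, was highest: it had 14292 counts (195 CPM) in the control library and 40031 counts (309 CPM) in the Cpeb4 shRNA library, a log2 ratio of 0.66 (0.64 to 0.69). Cnot11, which together with Cnot10 forms a module at the end of the scaffold, was lowest, with 1814 counts (24.8 CPM) and 3742 counts (28.9 CPM) and a ratio of 0.22 (0.14 to 0.31). Between them lay Cnot3 at 0.62 and Cnot2 at 0.52, the pair of the NOT module, Cnot10 at 0.54 and Cnot9 at 0.51, which binds recruiting proteins such as TNRC6. Cnot4, a ubiquitin ligase linked to the complex, was at 0.27. With 18 reference genes 5 of the 7 stayed above 0, and Cnot4 (-0.13) and Cnot11 (-0.18) did not.

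Of the 4 catalytic deadenylases of CCR4-NOT, Cnot6 stood apart. CNOT6 and CNOT6L are alternative nucleases of the EEP family, and CNOT7 and CNOT8 are alternative nucleases of the DEDD family. Each complex holds a member of each family. Cnot6 (ENSMUSG00000020362, mm10 chromosome 11, 49671503 to 49712723, minus strand) had 4893 counts (66.8 CPM) in the control and 19760 counts (153 CPM) in the Cpeb4 shRNA library. Its log2 ratio was 1.19 (1.15 to 1.24), or 2.29-fold. The other 3 were nearly level with each other: Cnot6l at 0.26, Cnot8 at 0.22 and Cnot7 at 0.19. Cnot7, the lowest, had 3469 counts (47.4 CPM) and 6997 counts (54.1 CPM), with an interval of 0.13 to 0.25. Those 3 were below 0 with 18 reference genes, at -0.15, -0.18 and -0.22, where Cnot6 was at 0.79, no longer past 2-fold.

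The order of the deadenylase levels depended on the length used for each gene. Per kb of 1 transcript, Cnot6 was at 26.7 CPM per kb in the control, ahead of Cnot8 at 23.0, Cnot7 at 15.9 and Cnot6l at 9.63. In the Cpeb4 shRNA library Cnot6 was at 61.1 CPM per kb, and the others followed in the same order at 26.8, 18.1 and 11.5. The level ratio of Cnot6 to Cnot6l was 2.78 in the control and 5.31 in the Cpeb4 shRNA library, whereas that of Cnot8 to Cnot7 was 1.45 and 1.48. Per kb of all annotated exon bases, Cnot8 led in the control (18.3 against 10.1 for Cnot6) and Cnot6 in the Cpeb4 shRNA library (23.1 against 21.3 for Cnot8). By that length the ratio of Cnot6 to Cnot6l was 1.26 in the control and 2.42 in the Cpeb4 shRNA library. Without Cnot6, the remaining 10 CCR4-NOT genes spanned only 0.47 log2 units.

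The PAN2-PAN3 deadenylase, which trims long tails, also differed between its genes. Pan2 encodes the nuclease (ENSMUSG00000005682, chromosome 10, 128303335 to 128321358, plus strand). It had 1335 counts (18.2 CPM) in the control and 6071 counts (46.9 CPM) in the Cpeb4 shRNA library, a log2 ratio of 1.36 (1.28 to 1.45), or 2.57-fold. Pan3, the adaptor that recruits the nuclease to poly(A)-binding protein, had 2446 counts (33.4 CPM) and 6100 counts (47.1 CPM), a ratio of 0.50 (0.43 to 0.57). Per kb of 1 transcript, Pan3 was 1.61 times Pan2 in the control (6.62 and 4.10 CPM per kb), and in the Cpeb4 shRNA library Pan2 was the higher by 1.13 times (10.6 and 9.34 CPM per kb). Per kb of all exon bases these ratios were 1.04 and 1.76, in the same directions. Both genes stayed above 0 with 18 reference genes, Pan2 at 0.96.

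Decapping genes showed the smallest differences of the larger groups, with a median of 0.36 over 9 genes. At 2-fold 0 were higher against 14.6% of all genes, and with so few genes a count of 0 says little. Lsm14a, whose protein binds DDX6 in P-bodies, was highest with 5033 counts (68.7 CPM) and 14536 counts (112 CPM), a log2 ratio of 0.71 (0.66 to 0.76). Dcp1b, a cofactor of the decapping enzyme and the gene with the fewest counts, had 564 counts (7.70 CPM) and 1541 counts (11.9 CPM) and a ratio of 0.63. The decapping enzyme gene Dcp2 was at 0.39, with 3825 and 8853 counts. Its cofactor Dcp1a was at 0.31, the scaffold Edc4 at 0.36, the enhancer Edc3 at 0.18 and the bridging factor Patl1 at 0.25. Lsm14b was at 0.41.

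Ddx6 was the gene with the lower level in the Cpeb4 shRNA library. It encodes the DEAD-box helicase that links CCR4-NOT to decapping and translational repression (ENSMUSG00000032097, chromosome 9, 44604892 to 44640731, plus strand). It had 21382 counts (292 CPM) in the control and 35751 counts (276 CPM) with Cpeb4 shRNA. Its log2 ratio was -0.08 (-0.10 to -0.06), and under total-count scaling it was 0.15. Per kb of 1 transcript, Ddx6 was the most abundant decapping transcript in both libraries, at 48.1 and 45.6 CPM per kb, with Lsm14a next at 23.3 and 38.2. The gap between the highest and the lowest decapping transcript was 20.7-fold in the control and 12.7-fold in the Cpeb4 shRNA library. Per kb of all exon bases Ddx6 also led, and the gaps were 29.9-fold and 18.3-fold. By that length Patl1 (13.3) was ahead of Lsm14a (11.2) in the control. With 18 reference genes only Lsm14a, Dcp1b and Lsm14b remained above 0, the last at 0.0029.

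The 5′-to-3′ exonucleases were both higher by less than 2-fold. Xrn2, the nuclear enzyme that also acts in transcription termination, had 7430 counts (101 CPM) and 20008 counts (155 CPM), a log2 ratio of 0.61 (0.57 to 0.65). Xrn1, which degrades decapped mRNA in the cytoplasm, had 4437 counts (60.6 CPM) and 10013 counts (77.4 CPM), a ratio of 0.35 (0.30 to 0.40). Xrn1 was at -0.05 with 18 reference genes.

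The RNA exosome held the genes with the largest ratios of the list, Exosc8 and Exosc2. Its 8 core genes had a median of 0.80, below the 0.93 of the 2 PAN2-PAN3 genes. Of the 8, 4 were at least 2-fold higher against 14.6% of all genes: Exosc8, Exosc2, Exosc1 and Exosc5. Exosc8 and Exosc2 were past 2-fold under every scaling tried. Exosc5 was just under it with DESeq2 size factors (0.9994) and upper-quartile scaling (0.98), and Exosc5 and Exosc1 were both under it with 20 reference genes (0.91 and 0.96). Exosc1 was at 0.92 with the trend with length and GC content removed. Exosc8 encodes a subunit of the barrel-shaped ring (ENSMUSG00000027752, chromosome 3, 54728678 to 54735393, minus strand). It had 796 counts (10.9 CPM) in the control and 6304 counts (48.7 CPM) in the Cpeb4 shRNA library, a log2 ratio of 2.16 (2.06 to 2.27), or 4.48-fold. Of all genes past the filter, 95.7% had a lower ratio.

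The cap subunits, which bind RNA at the entry of the ring, also differed from each other. Exosc2 (ENSMUSG00000039356, chromosome 2, 31670715 to 31681349, plus strand) had 1090 counts (14.9 CPM) and 5374 counts (41.5 CPM), a log2 ratio of 1.48 (1.39 to 1.58). Exosc1 (ENSMUSG00000034321, chromosome 19, 41922292 to 41933423, minus strand) had 918 counts (12.5 CPM) and 3390 counts (26.2 CPM), a ratio of 1.06 (0.96 to 1.17). Exosc3, the remaining cap gene, had 1778 counts and 3913 counts and a ratio of 0.32. Their levels per kb of 1 transcript were 22.5 (Exosc3), 12.3 (Exosc1) and 8.83 (Exosc2) CPM per kb in the control, and 28.1, 25.7 and 24.6 in the Cpeb4 shRNA library. The highest level was 2.55 times the lowest in the control and 1.14 times in the Cpeb4 shRNA library. Per kb of all exon bases it was 5.93 and 3.53 times, so the levels lay closer together in the Cpeb4 shRNA library by both lengths but were near equal by 1 of them.

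Ring genes spanned a wide range of ratios. Exosc5 (ENSMUSG00000061286, chromosome 7, 25659164 to 25671368, plus strand) had 3204 counts (43.7 CPM) and 11434 counts (88.4 CPM), a log2 ratio of 1.01 (0.96 to 1.07). Exosc7 was at 0.58 and Exosc9 at 0.39. Exosc4 was lowest, with 1600 counts (21.8 CPM) and 3136 counts (24.2 CPM) and a ratio of 0.15 (0.06 to 0.24). Over the 5 ring genes the highest level per length was 3.11 times the lowest in the control (Exosc5 at 26.0 and Exosc8 at 8.36 CPM per kb). In the Cpeb4 shRNA library it was 3.90 times (Exosc5 at 52.6 and Exosc4 at 13.5). Per kb of all exon bases the spread went the other way, from 4.48 to 2.36 times. With 18 reference genes Exosc9 (-0.02), Exosc3 (-0.09) and Exosc4 (-0.26) were below 0, and the other 5 core genes were above.

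The nucleases of the exosome were higher too. Dis3, the nuclease at the base of the ring, had 2503 counts (34.2 CPM) and 8817 counts (68.1 CPM), a log2 ratio of 0.996 (0.93 to 1.06) that lay just under 2-fold. Exosc10, a nuclease of the nuclear exosome, had 3984 counts (54.4 CPM) and 10445 counts (80.7 CPM), a ratio of 0.57 (0.52 to 0.62). Both stayed above 0 with 18 reference genes.

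**Figure D4:**
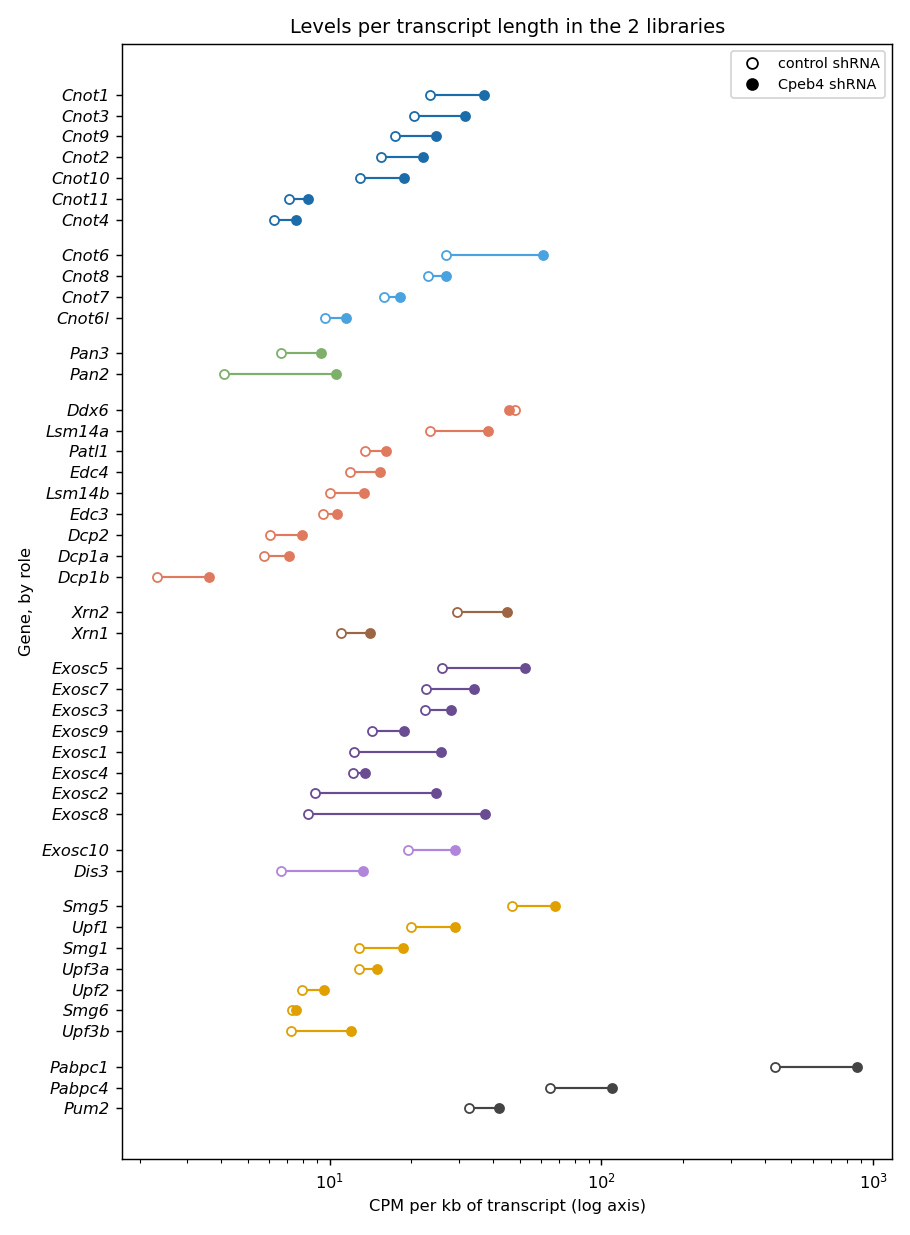
Level of each gene in CPM per kb of transcript (log horizontal axis) in the control shRNA library (open circles) and the Cpeb4 shRNA library (filled circles), by role and ordered within each role by the control level. The cap genes Exosc1, Exosc2 and Exosc3 lie between 8.83 and 22.5 in the control and between 24.6 and 28.1 in the Cpeb4 shRNA library, and Pabpc1 exceeds all others at 434 and 875.

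Set against each other, the 10 exosome genes had a median log2 ratio of 0.79 and the 11 CCR4-NOT genes a median of 0.51. The difference of 0.28 is the same under any scaling factor. It rested on part of the exosome: 7 of its 10 genes lay above the CCR4-NOT median and 3 below, and the genes Exosc8 and Exosc2 exceeded Cnot6, the highest of CCR4-NOT. Without Exosc8, left out after its value was seen, the exosome median was 0.58 and the difference of medians was 0.07. Leaving out any other exosome gene above 0.79 instead would give the same exosome median. Without Cnot6, the highest of CCR4-NOT, the median of that complex was 0.39.

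Reads of some of these genes cannot be told from those of a neighbour on the other strand, because the sources used here do not state the strand setting of the counting. Exons of 18 of the 44 genes share bases with another gene in GENCODE M21. Exosc9 shares 510 exonic bases with Ccna2, the cyclin A2 gene, which had 382 and 16515 counts and a log2 ratio of 4.61. Exosc8 shares 89 bases with Supt20 (0.76), and Exosc5 shares 355 bases with Tmem91, which had 63 and 225 counts. Exosc2 shares 358 bases with the predicted gene Gm13427, which had 3 and 21 counts. Cnot7 shares 247 bases with Zdhhc2 (1.72), Cnot9 shares 134 with Usp37 (1.04) and Edc3 shares 1284 with Clk3 (0.27). Cnot6, Pan2, Exosc1, Pabpc1 and Ddx6 share none.

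Under TMM scaling the median of the 7 NMD genes was 0.53. At 2-fold 0 were higher against 14.6% of all genes, again a count over few genes. With the trend with length and GC content over all genes removed, their median was 0.31. Upf1, the central helicase, was at 0.53 (6732 and 17227 counts). Smg1, the kinase that phosphorylates it, was at 0.53 (14680 and 37492 counts), and Smg5, which binds the phosphorylated form, was also at 0.53 (15296 and 39012 counts). These values lay within 0.01 log2 units of each other. With the trend with length and GC content removed they lay apart, with Upf1 at 0.64, Smg5 at 0.61 and Smg1 at 0.28. Upf3b, which links UPF proteins to exon junction complexes, was highest with 1241 counts (16.9 CPM) and 3648 counts (28.2 CPM), a ratio of 0.73 (0.64 to 0.83). Its paralogue Upf3a was at 0.22, and Upf2, which bridges UPF1 and UPF3, at 0.28.

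Smg6, the endonuclease that cuts NMD targets, was lowest with 3115 counts and 5692 counts. Its log2 ratio was 0.05 (-0.01 to 0.11), and it was -0.06 with 20 reference genes. With 18 reference genes Upf1, Smg1, Smg5 and Upf3b stayed above 0 and the other 3 NMD genes did not.

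Per transcript length, the tail-binding proteins had the most abundant transcripts of the list in both libraries. Pabpc1, the main cytoplasmic poly(A)-binding protein (ENSMUSG00000022283, chromosome 15, 36595661 to 36609668, minus strand), had 89603 counts (1223 CPM) and 319022 counts (2466 CPM). Its log2 ratio was 1.01 (1.0003 to 1.02), and it was under 2-fold with DESeq2 size factors (0.996), upper-quartile scaling (0.97) and 20 reference genes (0.90). Pabpc4, a second cytoplasmic form, had 14373 counts (196 CPM) and 42904 counts (332 CPM), a ratio of 0.76. Pum2, a Pumilio repressor that recruits deadenylases to its target mRNAs, had 14821 counts (202 CPM) and 33738 counts (261 CPM), a ratio of 0.37 (0.34 to 0.39) that was -0.04 with 18 reference genes. The sources used here do not state how reads with several alignments were counted, so genes with near-identical copies are uncertain.

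Ratios of related genes (paralogues, or enzymes and factors of 1 family) differed within most pairs. In 7 of 8 pairs the counting intervals did not overlap. These intervals cover counting error only. Their median width of 0.12 was small beside the interquartile range of all genes, 1.13. The share over other pairs of genes was not counted, so the 7 cannot be read as a trait of related genes. The largest gap was that of Cnot6 over Cnot6l (0.94), followed by Upf3b over Upf3a (0.52) and Smg5 over Smg6 (0.48). Smaller gaps were those of Dcp1b over Dcp1a (0.32), Lsm14a over Lsm14b (0.30), Pabpc1 over Pabpc4 (0.25) and Xrn2 over Xrn1 (0.25). Cnot8 and Cnot7, 0.03 apart, were the pair with overlapping intervals. In levels per kb of 1 transcript, the more abundant gene was the same in both libraries for all 8 pairs. For Upf3a over Upf3b the level ratio was 1.78 in the control and 1.24 in the Cpeb4 shRNA library, but 1.06 and 0.74 per kb of all exon bases.

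Shorter transcripts tended to have the higher ratios within the list. The correlation of log2 transcript length with the log2 ratio over the 44 genes was -0.36 (Pearson) and -0.34 (Spearman), and over all genes past the filter it was 0.00 for both. The genes share their libraries, and these are descriptions across genes, not across samples. The 22 shorter transcripts had a median of 0.58 and included 6 of the genes past 2-fold (27.3%), and the 22 longer ones had a median of 0.36 and included 1 (4.55%). Over all protein-coding genes, 13.7% of shorter and 13.4% of longer transcripts were past 2-fold, with medians of -0.02 and 0.06. Removal of the trend with length and GC content fitted over all genes therefore does not correct for this relation within the list. With it removed, 43 of the 44 genes were above 0, where the median of all genes was 0.03. Past 2-fold were 5 of the 44 and 1675 of all 12086 genes. The group medians moved most for NMD (0.53 to 0.31), decapping (0.36 to 0.22) and the XRN exonucleases (0.48 to 0.38). The CCR4-NOT deadenylases followed (0.24 to 0.15).

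The promoters of the genes past 2-fold were examined for letters they share. RefSeq windows (GRCm38.p6, 250 bases before to 50 after the start) matched 37 of the 44 genes and 6 of the 7 past 2-fold. The 250 bases before the start are shown for Exosc2 (chr2:31670465-31670714, plus strand), Pan2 (chr10:128303085-128303334, plus strand) and Cnot6 (chr11:49712723-49712972, minus strand). The stretches shown hold no more than 1 base of an annotated exon of their own gene. Those of Exosc8, Exosc1 and Exosc5 are not shown, and the Exosc8 window is the 1 of the 6 without CCAAT. Capitals mark CCAAT and its complement ATTGG.
Exosc2: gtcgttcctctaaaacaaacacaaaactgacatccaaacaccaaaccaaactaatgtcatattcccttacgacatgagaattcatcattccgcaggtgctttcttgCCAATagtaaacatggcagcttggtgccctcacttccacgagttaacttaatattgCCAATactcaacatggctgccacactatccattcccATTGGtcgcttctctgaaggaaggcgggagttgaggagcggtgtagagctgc
Pan2: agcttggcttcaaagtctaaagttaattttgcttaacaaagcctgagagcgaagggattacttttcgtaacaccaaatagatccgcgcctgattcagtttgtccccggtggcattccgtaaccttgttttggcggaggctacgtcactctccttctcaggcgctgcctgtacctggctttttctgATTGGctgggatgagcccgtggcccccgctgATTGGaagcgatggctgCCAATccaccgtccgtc
Cnot6: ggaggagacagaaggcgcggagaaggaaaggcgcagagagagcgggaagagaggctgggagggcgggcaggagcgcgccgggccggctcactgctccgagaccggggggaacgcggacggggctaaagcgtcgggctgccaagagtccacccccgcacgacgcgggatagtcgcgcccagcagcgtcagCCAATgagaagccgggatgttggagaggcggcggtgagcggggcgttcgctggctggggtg

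Of the 6 windows past 2-fold, 5 held CCAAT on either strand (83.3%). Over the members it was in 13 of 37 (35.1%), and in 43.9% of the protein-coding genes past the filter and 41.1% of all genes in the RefSeq table. The other motifs, each searched on both strands, were not in more than 1 of the 6. The E-box CACGTG was in 3 of 37 members (8.11%) against 12.2% of protein-coding genes past the filter. The E2F motifs TTTCCCGC, TTTCGCGC, TTTGCCGC and TTTGGCGC were in 4 of 37 (10.8%) against 5.06%, and in 0 of the 6. The ETS motif CCGGAAG was in 11 of 37 (29.7%) against 22.6%, and in 0 of the 6. These genes and motifs were picked after the values were seen, and a match says only that the letters are there.

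The cytoplasmic polyadenylation element (CPE) that CPEB proteins bind was searched in annotated 3′ UTRs as TTTTAT or TTTTAAT on the transcript strand. It was in 32 of the 44 genes (72.7%) and in 60.7% of 10364 protein-coding genes past the filter, and its density was 1.92 and 1.35 per kb. Within 100 bases of the last AATAAA or ATTAAA it was in 10 of the 44 (22.7%) and 17.9% of all. The windows below are those of the highest and the lowest gene by ratio that hold a CPE, with the CPE in capitals.
Exosc8: actgcacaggctTTTTATactaaataaata
Ddx6: aagccatgttaTTTTAATtggatacttttt

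The Exosc8 element is the only CPE of a 3′ UTR of 100 bases and ends 36 bases before its end. That of Ddx6 is 1 of 7 in a 3′ UTR of 4250 bases and ends 821 bases before its end. Genes with and without a CPE had similar ratios: the medians were 0.45 for the 32 with it and 0.54 for the 12 without, and over all genes 0.07 and -0.04. The CPE was in 10 of 11 CCR4-NOT genes and in 5 of 10 exosome genes, whose 3′ UTRs had median lengths of 1006 and 318 bases. The Pumilio motif TGTANATA was in 17 of the 44 (38.6%) against 25.3% of all, 7 of them among the 9 decapping genes.

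Other genes of mRNA decay, a list of 62 symbols that excludes the 44, had less uniform ratios. The table held 61 of them, and 60 had a mean past the filter. The exception was the ring gene Exosc6, with 1 count in each library. It shares 1326 exonic bases on the same strand with Aars, which had 20935 and 33283 counts, so its own level cannot be read from these counts. Among the 60, 40 were above 0 (66.7% against 52.5% of all genes), with a median of 0.30. At 2-fold, 9 were higher, or 15.0%, close to the 14.6% of all genes, and 3 were lower, or 5.0% against 11.8%. The highest were Lsm5 at 3.84 (68 and 1723 counts), Nanos1 at 2.77 (42 and 505 counts) and Lsm2 at 1.61 (1184 and 6406 counts). Lsm5 (0.93 and 13.3 CPM) and Nanos1 (0.57 and 3.90 CPM) passed the filter only through the Cpeb4 shRNA library, where they are high. Both are among the 9 genes at 2-fold. Lsm5 and Lsm2 belong to the LSM ring that promotes decapping, and Nanos1 encodes a partner of Pumilio that recruits CCR4-NOT. The lowest were Angel1 at -1.67 (1377 and 766 counts), related to the EEP nucleases, the decapping enzyme gene Nudt16 at -1.38 (2579 and 1747 counts) and the Argonaute gene Ago4 at -1.09 (2543 and 2111 counts).

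Grouped by role, 2 sets of partners were above 0 throughout both under TMM scaling and with 18 reference genes. All 7 genes of the LSM1-7 ring were above 0 under TMM scaling and with 18 reference genes, with a TMM median of 1.06. Of the 7, 4 were at 2-fold against 14.6% of all genes, Lsm5 among them, and Lsm1 was lowest at 0.42. All 6 exon junction complex genes, which mark spliced mRNAs for NMD, were likewise above 0 under both scalings. Their TMM median was 0.84, and Magoh and Magohb were both at 1.19. The 4 nuclear exosome adaptors were all above 0 under TMM scaling, against 52.5% of all genes. With 18 reference genes 2 of them were, against 33.2%. Their TMM median was 0.39, with Zcchc8 at 1.34. The SKI complex, which feeds mRNA into the cytoplasmic exosome, had a median of 0.02 over 3 genes. Of the 7 Argonaute and TNRC6 genes, which carry microRNA silencing, 1 was above 0 and the median was -0.13. The deadenylases outside CCR4-NOT and PAN2-PAN3 had a median of -0.07 over 6 genes, with Parn at -0.15 and Pde12 at 0.62.

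**Figure D5:**
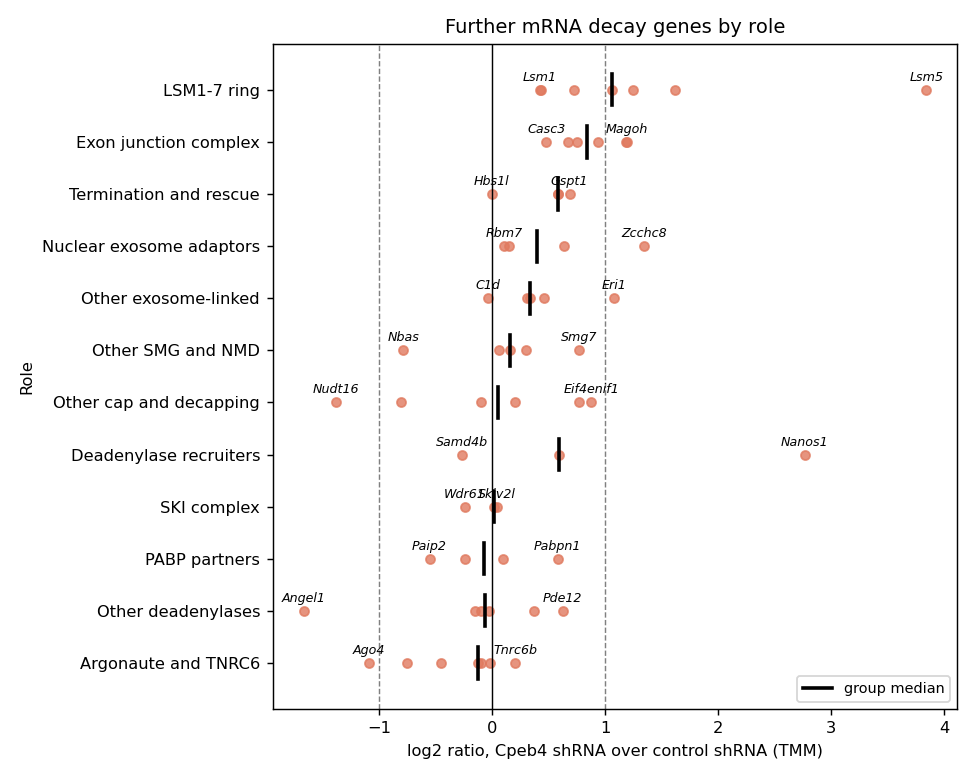
Log2 ratios (horizontal axis, Cpeb4 shRNA over control) of the 60 further decay genes past the filter by role; each point is a gene, the thick bar is the group's median, dashed lines mark 2-fold, and the lowest and highest gene of each role are named. The LSM1-7 ring (median 1.06), exon junction genes (0.84) and nuclear exosome adaptors (0.39) lie wholly above 0, and Argonaute and TNRC6 genes (-0.13) lie mostly below.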

How the data were processed

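Whole-number counts per gene, 1 column per library, were deposited by the authors. Reads were aligned with HISAT2 to mm10, per the submitters' processing notes. The sources used here do not state the counting tool, annotation or strand setting. All 18987 genes of the table had a count of 1 or more in each library, so a gene without a count in either library is not analysed here.

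Counts were scaled by TMM in edgeR 4.0.16 (factors 0.922 and 1.08), and CPM refers to the scaled library size. Ratios used no pseudocount. Levels per kb used 1 GENCODE M21 (GRCm38) transcript per gene, coding and of the best APPRIS rank, then the longest. Levels per kb of all annotated exon bases were added after seeing the data. The computation was tested on simulated data. With 1 library per group no test was run. Genes were counted by size (2-fold or 1.5-fold) among genes whose mean was 1 CPM or more.

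Named were the highest and lowest gene of each role, every gene past 2-fold, 8 paralogue pairs, the 3 highest and 3 lowest further decay genes, and others by value. Genes and lists were chosen with earlier results of these data known. The roles of the further decay genes and the promoter motifs were chosen after their values were seen. The alternatives were total-count, DESeq2 1.42.0, upper-quartile and reference-gene scaling, other filters, pseudocounts of 0.5 and 2 CPM, other thresholds, and removal of the trend with length and GC content.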

Additional observations from a re-analysis of the deposited data

How the results depend on the processing

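Of the 44 genes, 7 were at least 2-fold higher under TMM scaling, 4 with 20 reference genes and 2 with 18 reference genes. At a 1.5-fold threshold 15 were higher, and at 4-fold 1. Over all 12086 genes past the filter these counts were 1765, 1509, 1057, 3191 and 582, in the same order. Under the other alternatives between 5 and 8 of the 44 were higher. The number of the 44 that were 2-fold lower was 0 under every alternative. The median was 0.75 under total-count scaling, 0.41 with 20 and 0.11 with 18 reference genes. Cpeb4 was at -1.49, -1.83 and -2.13 under the same scalings. The 18-gene set, without Tfrc and Gusb, was chosen after seeing the data. Total-count scaling moved the median of all genes by 0.23, 20 reference genes by -0.11 and 18 by -0.41. Of the genes past 2-fold over the whole table, 55.4% were higher under TMM, 70.5% under total-count scaling, 47.4% with 20 and 28.6% with 18 reference genes. With no filter 3217 genes were 2-fold higher and 2930 lower over the whole table, against 1765 and 1421 with it, and 1025 and 907 with a filter at 10 CPM. The exosome minus CCR4-NOT difference stayed between 0.26 and 0.31. With the 10 CPM filter, 7 of 43 genes (16.3%) were 2-fold higher against 11.6% of all genes. No paired analysis was possible because a single library stood for each group. Which scaling is right for these cells was not tested, and depth bears most on Dcp1b, whose counting interval was 0.28 wide.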
